A study of Drosophila melanogaster with 12 samples.

Results

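The nuclear genes for proteins of the mitochondrial ribosome were followed in guts and fat bodies of adult *Drosophila melanogaster* females, with and without induced RNAi against *pointed* (*pnt*). Members were all genes of either count table whose FlyBase symbol starts with mRpL (large subunit) or mRpS (small subunit). They numbered 72 of the 11409 genes in either table, 47 for the large subunit and 25 for the small one, and all 72 were in the tables of both tissues. The gene annotation holds 73 such symbols, and the remaining one, *mRpS5*, was not analysed here. *tko* and *bonsai*, which encode the small subunit proteins S12 and S15 under older names, fall outside the symbol rule and are given beside the members.

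The mitochondrial ribosome translates the few respiratory chain proteins that are encoded in mitochondrial DNA. Its rRNAs come from that genome, whereas every one of its proteins is encoded in the nucleus, made in the cytosol and imported. Some of these proteins have a counterpart in bacterial ribosomes and others are specific to mitochondria, and loss of single members impairs respiration in flies.

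RNA was sequenced from poly(A)-enriched libraries of 2 tissues. Induced guts and induced fat bodies came from females carrying *UAS-Pnt* RNAi under the S106 GeneSwitch driver, fed 200 µM RU486 for 6 days after 48 h of mating. Control guts and control fat bodies came from females of the same genotype fed the ethanol vehicle according to the study's methods, although the sample labels give the RU486 dose for every sample. All flies were outbred, *Wolbachia*-free Dahomey flies with the *white* mutation. The driver acts in both organs when the flies eat RU486. Each of the 12 libraries, 3 per group, came from the pooled organs of 12 flies, so that spread between libraries is spread between pools. Guts were taken without tubules. As fat body the study used what remained of the abdomen once gut and reproductive anatomy were gone. No library came from flies fed RU486 without the RNAi transgene, so effects of the inducer and of the RNAi cannot be told apart.

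The depth per library was 5916313 to 8889127 counts for induced guts and 7172991 to 10254951 for control guts. For fat bodies it was 4932359 to 8304564 counts when induced and 7310630 to 9580571 in controls. Gut markers, such as trypsins and amylases, summed to between 37641 and 62066 CPM (counts scaled to one common library size, with TMM factors over the 12 libraries) in guts and to at most 97.3 CPM in fat bodies. Fat body markers, yolk protein and apolipophorin genes among them, summed to between 23949 and 102156 CPM in fat bodies and to between 842 and 2028 CPM in guts. Transcript of *pnt* stood at 25.3, 24.9 and 28.2 CPM in induced guts, against 33.0, 34.9 and 27.5 CPM in control guts. In fat bodies it stood at 7.11, 8.95 and 9.73 CPM when induced, against 9.59, 10.2 and 11.7 CPM in controls. Groups overlapped in both tissues, and the log2 fold changes of *pnt* were -0.31 for the gut (standard error 0.21, adjusted p = 0.838, edgeR) and -0.30 for the fat body (standard error 0.26, adjusted p = 0.986, edgeR). Two-sided exact permutation tests of its CPM gave p = 0.2 in each tissue, where 0.1 is the smallest p that 3 libraries against 3 allow. Control gut library 112 and control fat body library 106 stood apart from the other controls of their tissues in the members' levels and in markers of other tissues. The median member lay 0.14 above its mean over the 6 guts in library 112, against -0.19 and -0.45 in the other control guts (log2 scale), and -0.33 in library 106, against 0.17 and 0.12 in the other control fat bodies. Results that rest on these libraries are given with and without them. In bulk tissue, fewer cells of a type and less RNA per cell cannot be told apart.

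Every member was detected in every library, the lowest count being 33, and the 72 together took between 0.148% and 0.253% of the counts of a library. Their summed level was 2536, 2123 and 2330 CPM in induced guts, against 1902, 1652 and 2313 CPM in control guts, the last being library 112. In fat bodies the sum was 1799, 1955 and 1915 CPM in induced libraries, against 1967, 2007 and 1617 CPM in controls, the last being library 106. Induced guts therefore lay above control guts 110 and 111, with library 112 inside their range, and the fat body groups overlapped.

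Levels of different members were compared per length, as CPM per kilobase of exon. The median member stood at 34.7 CPM per kb in induced guts and 27.3 in control guts, and at 30.4 in induced fat bodies and 28.7 in control fat bodies. Most genes were lower, since the median of 9926 genes with a known length was 8.40 CPM per kb in control guts and 7.76 in control fat bodies, and 71 of the 72 members exceeded it in each. Although their proteins join one particle, their transcripts covered a wide range. Members spanned 11.2-fold in control guts and 18.3-fold in control fat bodies, and 55 and 53 of them lay within 2-fold of the median member.

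The highest members per length in control guts were *mRpL33* (90.9 ± 38.5 CPM per kb, SD, n = 3) and *mRpL35* (90.8 ± 30.4), both small bacterial-type proteins of the large subunit. Next came *mRpS7* (85.01 ± 31.9), whose bacterial counterpart starts assembly of the small subunit head, and *mRpL55* (80.5 ± 28.5), specific to mitochondria. These 4 did not differ beyond their spread. In control fat bodies the highest were *mRpL55* (90.7 ± 28.5 CPM per kb), *mRpL53* (89.1 ± 11.7), *mRpL30* (71.7 ± 13.1) and *mRpL33* (66.0 ± 21.99). Lowest in control guts were *mRpL21* (8.08 ± 2.14 CPM per kb), *mRpL38* (9.04 ± 3.33), *mRpS31* (10.0 ± 3.19) and *mRpL2* (12.6 ± 3.67), the last of which lies near the peptidyl transferase centre in bacteria. In control fat bodies *mRpL38* (4.96 ± 2.11 CPM per kb), *mRpL2* (8.41 ± 4.22), *mRpS35* (9.04 ± 4.49) and *mRpS22* (9.63 ± 6.03) were lowest. The order of members was much the same in both organs (Spearman's rho 0.92 between control guts and control fat bodies over the 72 members, given as a description, since the values share gene length and sequence composition). *mRpL53*, with 829 bp of exon, shares exonic positions with *AGO1* on the other strand and *CG33155* on the same strand, 862 bp summed over both genes. Whether counting used strand is not given in the sources used here, and strand would not separate it from *CG33155*. Its level per length is uncertain to that extent.

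**Figure D1:**
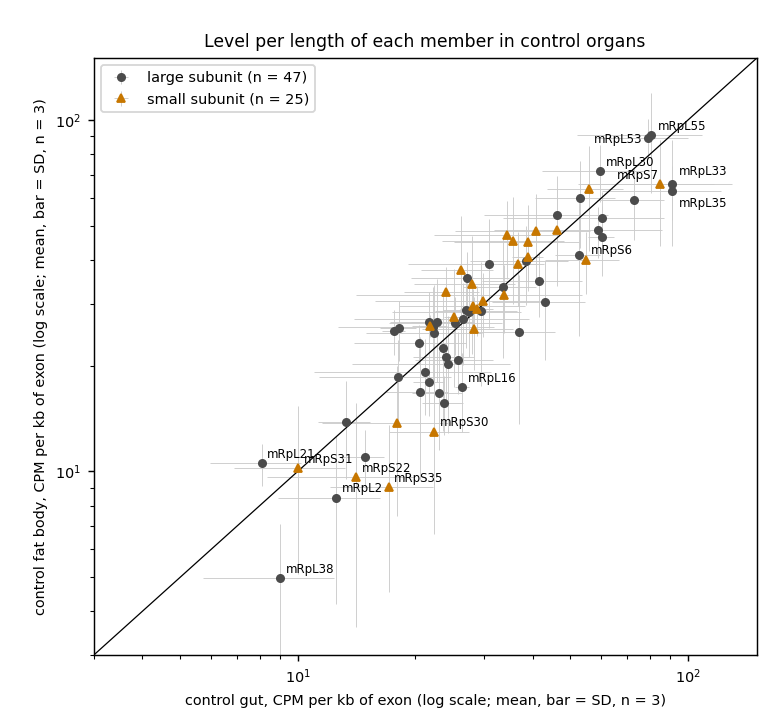
Mean CPM per kilobase of exon in control guts (x axis, log scale) and control fat bodies (y axis, log scale) for each of the 72 members, with circles for the large and triangles for the small subunit and bars for the SD of 3 libraries. Points follow the line of equality from *mRpL38* (9.04 in guts, 4.96 in fat bodies) to *mRpL55* (80.5 in guts, 90.7 in fat bodies).

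*tko* and *bonsai*, the members of the same particle with other names, sat among them. *tko*, whose bacterial counterpart S12 lies at the decoding centre, stood at 38.5, 30.01 and 30.3 CPM in induced guts, against 27.6, 19.96 and 32.5 CPM in control guts. *bonsai* stood at 62.4, 54.4 and 57.4 CPM in induced guts, against 47.7, 41.9 and 59.2 CPM in control guts. Both groups overlapped through library 112 alone, as for the summed members. Paralogs of bacterial S18 differ in their place in mammals, where S18A belongs to the large subunit and S18B and S18C to the small one. In control guts *mRpS18A* stood at 27.96 CPM per kb, *mRpS18B* at 25.1 and *mRpS18C* at 34.4, and in control fat bodies they stood at 34.2, 27.6 and 47.0 in the same order of names.

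On induction in the gut, 62 members had a positive and 10 a negative log2 fold change, with a median of 0.27 over the members and -0.06 over all 10358 genes. None passed the test, with 0 of 72 called at 10% FDR by edgeR, where 0.0483% of all genes were called, and 0 by DESeq2, which called 0.415%. At an unadjusted p under 0.05, edgeR listed 2 members (2.78%, against 5.43% of all genes). Every induced gut lay above every control gut for 8 members (11.1%, against 5.45% of all genes), and every induced gut below every control gut for 0 members (against 4.61%). Fold changes were small, with 70 of 72 members within 0.5 of zero on the log2 scale.

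*mRpL49*, a large subunit protein specific to mitochondria, had the highest fold change. It stood at 27.0, 17.5 and 21.2 CPM in induced guts, against 14.3, 12.5 and 15.4 CPM in control guts, and the groups did not overlap (log2 fold change 0.61, standard error 0.23, 95% interval 0.08 to 1.14, adjusted p = 0.836, edgeR). The gene (FBgn0030433) lies on chromosome X from 12907105 to 12907942, plus strand (coordinates of genome release 6, as annotated by Ensembl). *mRpL40*, also specific to mitochondria, stood at 32.7, 26.1 and 24.5 CPM in induced guts, against 19.4, 16.8 and 21.6 CPM in control guts, again without overlap (log2 fold change 0.50, standard error 0.21, adjusted p = 0.836, edgeR). These are the 2 members with an unadjusted p under 0.05. *mRpS14*, a protein of the small subunit head in bacteria, stood at 30.1, 20.6 and 23.2 CPM, against 17.5, 15.7 and 19.2 CPM in control guts. *mRpL52* and *mRpL42* had log2 fold changes of 0.47 each, and in both library 112 lay within the induced range.

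At the other end stood long members. *mRpS22*, of the small subunit and specific to mitochondria, had the lowest value, at 11.5, 14.7 and 16.7 CPM in induced guts, against 21.6, 25.02 and 10.2 CPM in control guts (log2 fold change -0.44, standard error 0.35, adjusted p = 0.843, edgeR). *mRpL38* stood at 7.41, 9.54 and 11.9 CPM in induced guts, against 15.4, 15.3 and 7.27 CPM in control guts (log2 fold change -0.43). For both, control guts 110 and 111 lay above every induced gut and library 112 below every one. *mRpS35* (log2 fold change -0.38), *mRpL2* (-0.34) and *mRpS30* (-0.20), which is a large subunit protein in mammals, completed the lowest 5 and were not called.

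Both subunits had a like median. The median log2 fold change in the gut was 0.24 over 47 large subunit genes and 0.29 over 25 small subunit genes. Over the 29 members that share no exonic position with another annotated gene it was 0.26. Among the S18 paralogs, *mRpS18B* was higher in every induced gut, at 35.2, 25.4 and 25.1 CPM, against 21.3, 20.7 and 23.0 CPM in control guts (log2 fold change 0.37, adjusted p = 0.836, edgeR), and *mRpS18A* (0.24) and *mRpS18C* (0.41) overlapped.

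**Figure D2:**
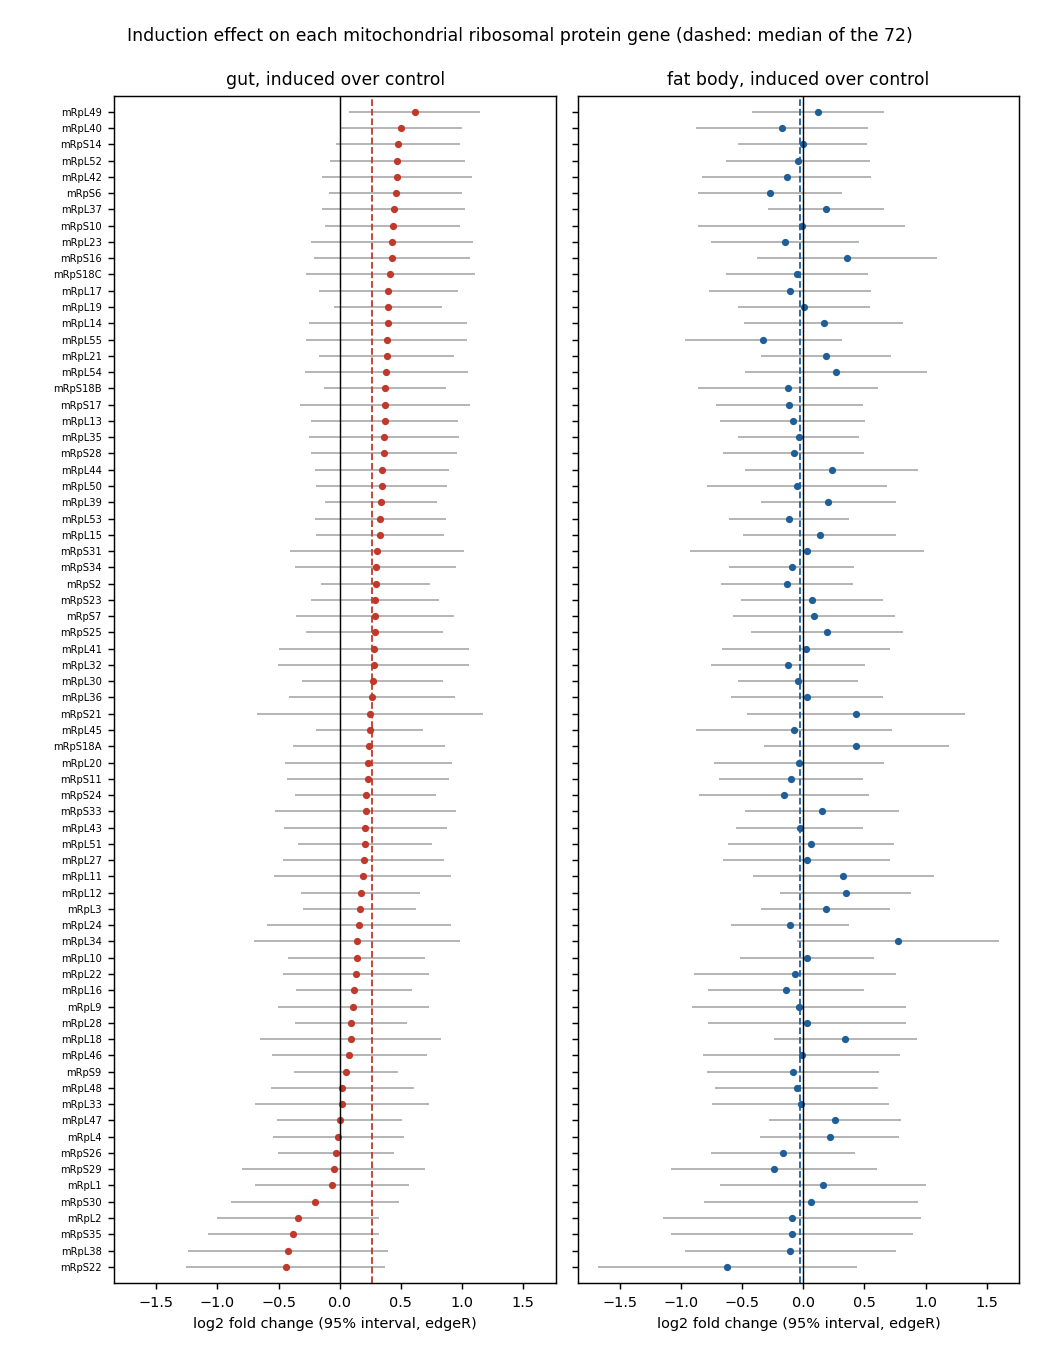
Log2 fold change of induced over control libraries for each member in the gut (left) and the fat body (right), with 95% intervals from edgeR and members ordered by their value in the gut. The dashed lines mark the medians of 0.27 for the gut and -0.03 for the fat body, and the intervals of all members but *mRpL49* and *mRpL40* in the gut reach zero.

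Without library 112 the gut comparison changed in size. That library was singled out by the members' own levels, and its summed members were the highest of the control guts. Leaving it out therefore raises the members' values by choice, and the counts below are a description only. The median over members became 0.49, and 1 member of 72 was called (1.39%, against 8.49% of all genes). At an unadjusted p under 0.05, 32 members were higher (44.4%, against 12.5% of all genes) and 4 lower (5.56%, against 16.5%). The member called without library 112 was *mRpL37*, specific to mitochondria, at 52.1, 44.6 and 44.4 CPM in induced guts, against 28.3 and 27.5 CPM in control guts 110 and 111 and 47.1 CPM in library 112 (log2 fold change without 112 of 0.73, adjusted p = 0.0814, edgeR). With all 6 guts its log2 fold change was 0.44 (adjusted p = 0.836, edgeR). Leaving out each of the other 5 guts in turn gave medians between 0.15 and 0.36 and called 0 members.

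The induction values in the gut ran with exon length, in members and in other genes alike. Among the shortest 24 members (327 to 704 bp) the median log2 fold change in the gut was 0.28, against 0.24 over the 514 genes of at least 5 CPM in the same range of length. Among the middle 24 (707 to 917 bp) it was 0.26, against 0.25 over 512 genes. Among the longest 24 (924 to 2078 bp) it was 0.15, against 0.04 over 2919 genes. Without library 112 the members' medians were 0.61, 0.52 and 0.15 from the shortest to the longest group, against 0.55, 0.48 and 0.10 in the other genes of those lengths. The longest group was not matched in length, since most of its members lay near the short end of its range. Bins of all genes with median lengths of 1023 and 1176 bp had medians of 0.16 and 0.12. Without library 112, bins at 1027 and 1180 bp had 0.35 and 0.22, above the 0.15 of the longest members. With the length trend of each library fitted as an offset, an alternative chosen after the data were seen, the members' median in the gut was 0.04 and 39 of 72 were positive. The part that length plays in the members' values was not tested further.

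The ordering by length differed between single libraries. In induced gut 107 the shortest members stood 0.48 above and the longest 0.07 below their tissue means on the log2 scale, and in control gut 112 the shortest stood 0.30 above and the longest 0.23 below. Induced guts 108 and 109 did not share it, with the shortest members at -0.04 and 0.09 and the longest at 0.10 and 0.18. In control guts 110 and 111 the shortest members were the lower ones, with the shortest members at -0.28 and -0.58 and the longest at 0.02 and -0.13. In the fat body the 2 controls at the ends were library 104 (shortest at 0.31, longest at -0.53) and library 106 (shortest at -0.46, longest at 0.24). Induced fat bodies stayed between -0.11 and 0.12 in both length groups. Genes of every length shared this ordering only in part. Spearman's rho of a library's values with exon length was -0.36 over 7656 genes in library 107 (-0.63 over members) and 0.39 in library 111 (0.71). It was -0.10 in library 112 (-0.62), and -0.31 in library 109 (0.29), of the other sign. Over 7753 genes in fat bodies it was -0.04 in library 104 (-0.64) and 0.07 in library 106 (0.62).

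**Figure D3:**
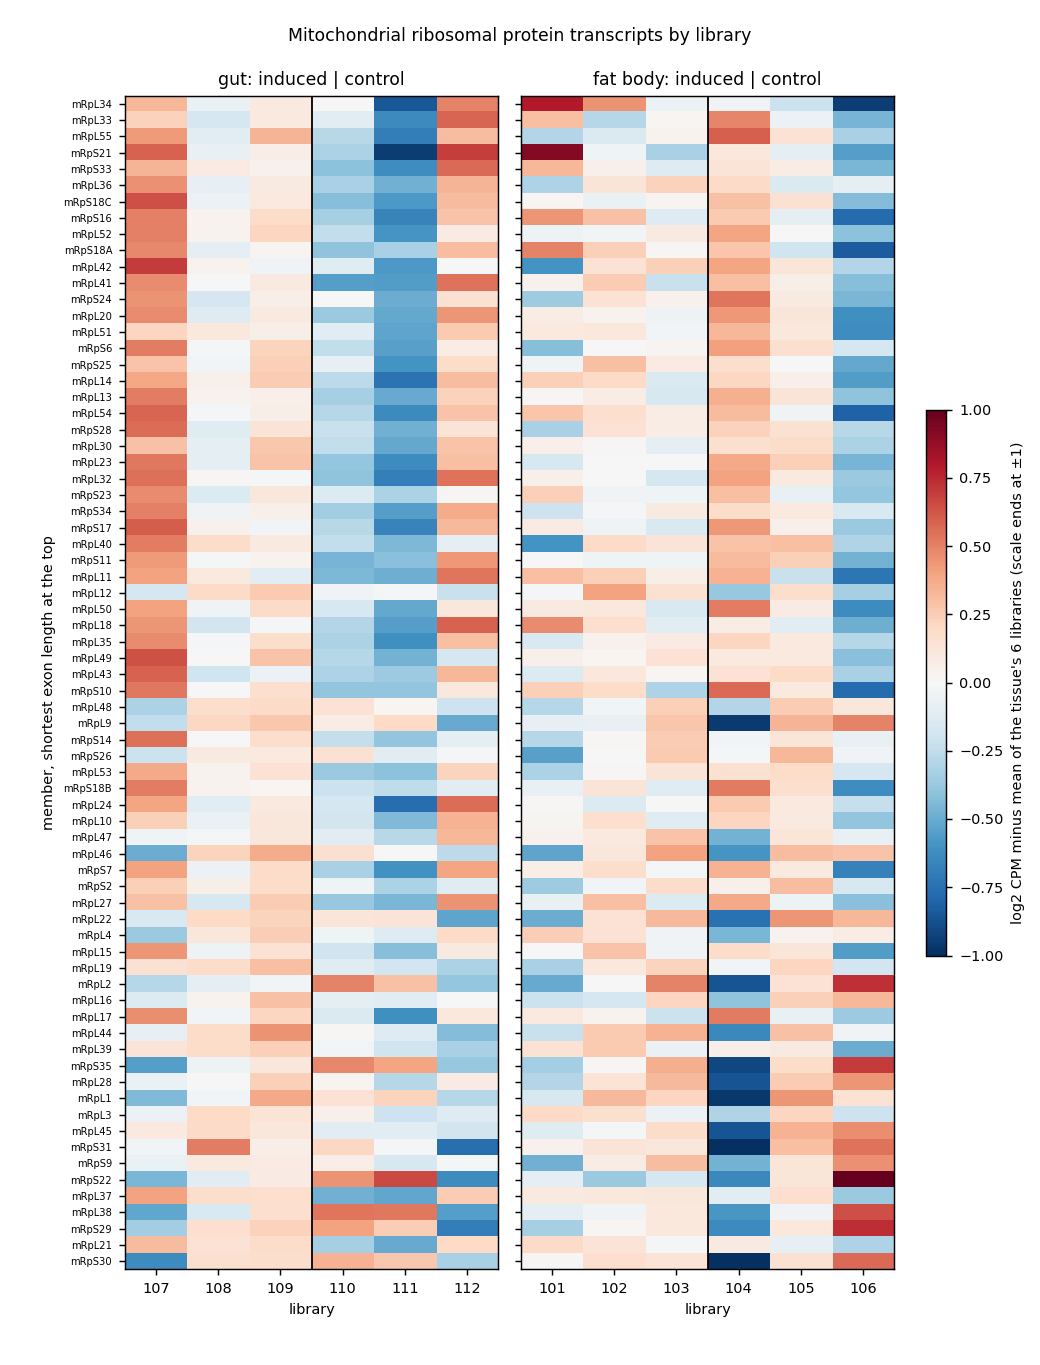
Log2 CPM of each member in each library minus its mean over the 6 libraries of that tissue, with members ordered by exon length (shortest at the top) and induced libraries left of control libraries. In the gut, libraries 107 and 112 are high for short members (0.48 and 0.30 above the mean at the median of the shortest 24) and libraries 110 and 111 are low, and in the fat body libraries 104 and 106 run opposite ways.

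**Figure D4:**
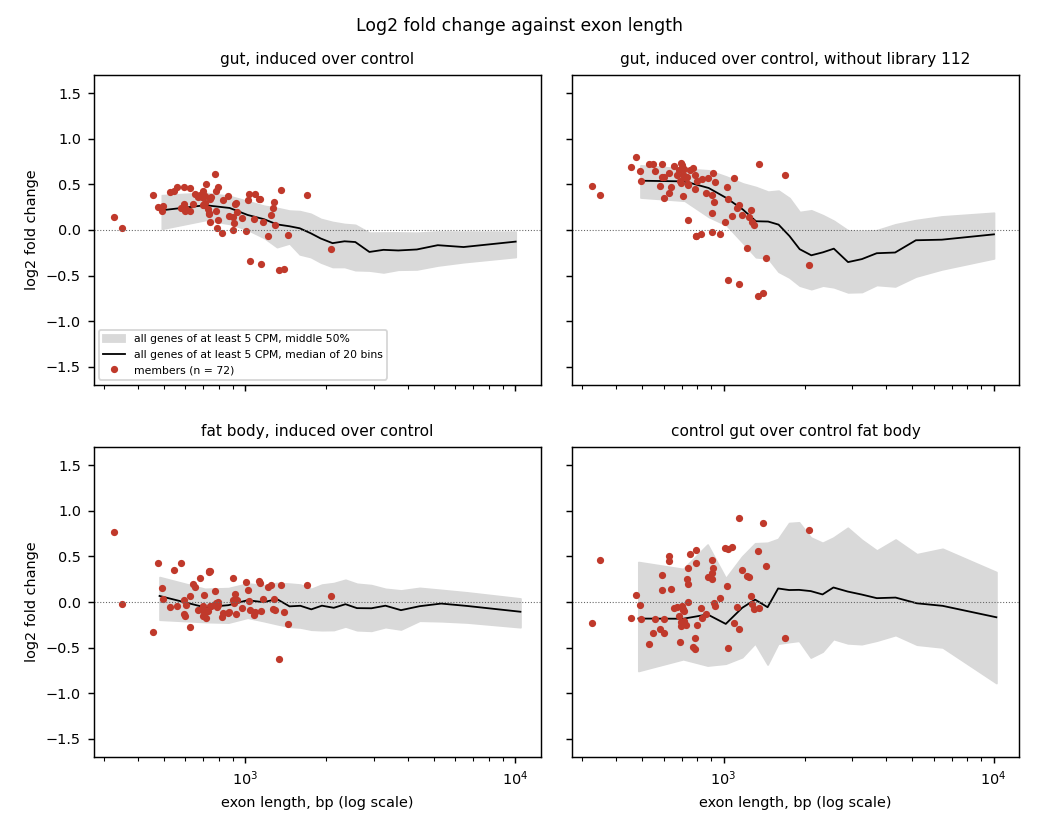
Log2 fold change against exon length (log scale) for the 72 members (points) and for all genes of at least 5 CPM (line, median of 20 bins, and band, the middle 50% of genes), for induction in the gut with and without library 112, for induction in the fat body and for control gut over control fat body. In the gut the members follow the line, which stands higher for short genes, and more steeply without library 112 (median of the shortest members 0.61).

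Ovary and tubule transcripts also varied between libraries. Ovary markers, among them chorion and vitelline membrane genes and others such as *osk* and *orb*, summed to 101, 703 and 1076 CPM in induced guts. In control guts they summed to 193, 3238 and 58.3 CPM. Different genes made up these sums, with *Cp19* at 1563 CPM in control gut 111 and *osk* at 176 CPM in induced fat body 101. Tubule markers summed to 206, 14.9 and 17.0 CPM in induced guts, against 155, 179 and 22.3 CPM in control guts. Library 112, the last control gut, was the lowest control for both. Its fat body markers summed to 842 CPM, against 1819 and 2028 CPM in the other control guts. Its transcripts encoded in mitochondrial DNA summed to 201015 CPM, against 79425 and 53819 CPM. The control gut with the most ovary marker RNA, library 111, was also the one with the lowest summed members, and the part of these tissues in the members' values was not tested. In fat bodies ovary markers summed to 642, 763 and 347 CPM when induced, against 463, 421 and 130 CPM in controls, and tubule markers to 144, 183 and 199 CPM when induced, against 64.9, 85.7 and 325 CPM in controls. Library 106, the last control, was thus lowest for ovary and highest for tubule markers, and its fat body markers summed to 102156 CPM, against 26271 and 33490 CPM in the other controls. Their part in the members' values was not tested either.

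In the fat body no member passed the test on induction, with 32 positive and 40 negative log2 fold changes and a median of -0.03, against -0.05 over 11056 genes. By edgeR 0 of 72 were called (0% of all genes), by DESeq2 0 (0.145% of all genes), and at an unadjusted p under 0.05 edgeR listed 0 members (2.73% of all genes). Induced fat bodies lay wholly above controls for 0 members (4.22% of all genes) and wholly below for 0 (3.92%). Without library 106 the median was -0.02 and 0 were called.

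The highest value in the fat body belonged to *mRpL34*, a small bacterial-type protein, at 18.6, 14.6 and 10.3 CPM in induced fat bodies, against 10.49, 9.25 and 5.59 CPM in control fat bodies. Its groups overlapped in 1 library on each side (log2 fold change 0.77, standard error 0.35, 95% interval -0.05 to 1.60, adjusted p = 0.986, edgeR). *mRpS18A* and *mRpS21* followed at 0.43 each, then *mRpS16* at 0.36 and *mRpL12* at 0.35, which encodes the stalk protein that binds translation factors. The lowest was *mRpS22*, at 9.14, 7.56 and 8.64 CPM in induced fat bodies, against 6.25, 10.6 and 21.9 CPM in control fat bodies (log2 fold change -0.62, standard error 0.45, adjusted p = 0.986, edgeR). Its value rested on library 106, the highest of the 3 controls, and without that library it was 0.02. *mRpL55* (log2 fold change -0.33), *mRpS6* (-0.27), *mRpS29* (-0.24), whose mammalian counterpart DAP3 binds GTP, and *mRpL40* (-0.17) completed the lowest 5, none called.

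The fit of all libraries compared the induction effects of both organs, and no difference was detected. In 1 fit of 12 libraries, 0 of 72 members passed for the difference of the effects (0% of all genes) by edgeR or by DESeq2, and 0 had an unadjusted p under 0.05 by edgeR (3.42% of all genes). The median difference, gut effect minus fat body effect, was 0.23 over members and 0.00 over all genes. *mRpS6*, in bacteria a partner of S18 on the small subunit platform, came closest, with a difference of 0.74 (standard error 0.35, 95% interval -0.01 to 1.5, adjusted p = 0.999, edgeR). It stood at 57.2, 39.8 and 46.6 CPM in induced guts, against 33.7, 27.4 and 42.0 CPM in control guts, and at 16.9, 22.8 and 23.1 CPM in induced fat bodies, against 30.1, 25.3 and 20.1 CPM in control fat bodies. *mRpL55* (difference 0.72), *mRpL40* (0.69) and *mRpS14* (0.49) were the next smallest p-values. Intervals were wide, and that of *mRpS6* reached 1.5, so that the fit does not exclude a difference of that size.

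Between organs of control flies the members were close to level, with a median log2 fold change of gut over fat body of -0.04, 32 positive and 40 negative. By edgeR 4 members were higher in the gut at 10% FDR (5.56%, against 19.9% of all genes) and 1 was lower (1.39%, against 18.3%). Control guts lay wholly above control fat bodies for 3 members (4.17%, against 19.5% of all genes) and wholly below for 2 (2.78%, against 18.1%). These shares of members lay below those of all genes, and the difference in shares was not tested.

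*mRpS35* had the largest difference, at 23.6, 22.2 and 12.98 CPM in control guts, against 5.02, 10.7 and 15.3 CPM in control fat bodies (log2 fold change 0.93, standard error 0.39, adjusted p = 0.0900, edgeR), and library 112 lay below library 106. *mRpL38* stood at 15.4, 15.3 and 7.27 CPM in control guts, against 4.35, 6.33 and 10.2 CPM in control fat bodies (log2 fold change 0.87, adjusted p = 0.0937, edgeR), again with library 112 below library 106. *mRpL16*, which lies near the A site in bacterial ribosomes, was higher without overlap, at 27.9, 27.6 and 29.8 CPM in control guts, against 13.3, 20.7 and 22.01 CPM in control fat bodies (log2 fold change 0.61, standard error 0.24, adjusted p = 0.0718, edgeR). The gene (FBgn0023519) lies on chromosome X from 1890256 to 1891482, plus strand, and its exons share 82 bp with *arm* on the other strand. *mRpL4*, whose bacterial counterpart lines the exit tunnel, stood at 23.0, 21.7 and 27.2 CPM in control guts, against 12.4, 17.4 and 17.9 CPM in control fat bodies (log2 fold change 0.59, adjusted p = 0.0752, edgeR). *mRpS30* had a value of 0.79 and was not called (adjusted p = 0.121, edgeR).

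*mRpL19*, whose bacterial counterpart lies at the interface of the subunits, was the 1 member called lower in control guts, at 19.4, 18.5 and 17.0 CPM, against 25.3, 30.1 and 22.7 CPM in control fat bodies (log2 fold change -0.51, standard error 0.21, adjusted p = 0.0858, edgeR), and its groups did not overlap. *mRpS10* (-0.52), *mRpL49* (-0.50), *mRpS18C* (-0.46) and *mRpS28* (-0.44) were the other lowest members and were not called. These calls depended on the fit. In the fit of the 6 control libraries alone 0 members were called. Without libraries 112 and 106 together, an alternative chosen after the data were seen, 9 were called higher (12.5%, against 30.7% of all genes) and 27 lower (37.5%, against 28.5%). The members' median was then -0.36, running from -0.65 in the shortest members to 0.35 in the longest, against -0.54 and 0.05 in other genes of those lengths. Most of the longest members lay near the short end of their range, so that the last pair was not matched in length. With scaling by total counts only, 0 members were higher and 8 lower, the median of all genes being shifted to -0.25, and 39.2% of all calls were then higher in the gut, against 52.2% with TMM. Under TMM, upper quartile and total count scaling alike, the members' median lay 0.04 to 0.06 below that of all genes, which is no separate check, since scaling shifts all genes nearly alike.

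Between organs of induced flies the members' balance depended on the scaling. With TMM they had a median log2 fold change of 0.28, against -0.05 over all genes, 60 positive and 12 negative. By edgeR 5 members were higher (6.94%, against 21% of all genes) and 1 was lower (1.39%, against 22.7%). Every induced gut lay above every induced fat body for 26 members (36.1%, against 27.4% of all genes) and below every one for 1 (1.39%, against 30%). The induced groups share no library with the control groups, but their gut and fat body libraries were scaled together. With total counts only, the members' median was -0.20 and that of all genes -0.53, so that the members lay 0.33 above the median of all genes under both scalings. A change of scaling shifts all genes nearly alike, so that the like distance is no separate check. With total counts only the balance of called members turned, with 1 higher (*mRpS6*) and 7 lower in the gut. The 7 were *mRpL19*, *mRpL21*, *mRpL34*, *mRpL39*, *mRpL43*, *mRpS16* and *mRpS18A*. Of all calls between induced organs 48.0% were higher in the gut with TMM and 26.4% with total counts only.

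*mRpS6* was the highest, at 57.2, 39.8 and 46.6 CPM in induced guts, against 16.9, 22.8 and 23.1 CPM in induced fat bodies, without overlap (log2 fold change 1.19, standard error 0.25, 95% interval 0.65 to 1.73, adjusted p = 0.00230, edgeR). The gene (FBgn0035534) lies on chromosome arm 3L from 4364550 to 4365243, plus strand, and shares no exonic position with another gene. It was called higher under each alternative tried for this contrast, and with total counts only it was the 1 member called higher. *mRpL35* stood at 105, 75.3 and 85.8 CPM in induced guts, against 41.8, 47.9 and 49.3 CPM in induced fat bodies (log2 fold change 0.94, adjusted p = 0.0122, edgeR). *mRpL42* (0.91, adjusted p = 0.0307), *mRpL16* (0.88, adjusted p = 0.0123) and *mRpL51* (0.65, adjusted p = 0.0769) were the other 3 called higher by edgeR. *mRpL16* was thus called in both pairs of organs. *mRpL34* was the 1 member called lower, at 9.26, 7.03 and 7.89 CPM in induced guts, against 18.6, 14.6 and 10.3 CPM in induced fat bodies (log2 fold change -0.85, adjusted p = 0.0950, edgeR), and DESeq2 did not call it.

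Other genes of mitochondrial gene expression and of the respiratory chain are set beside the members as counts and medians, with no test between lists. Nuclear genes for subunits of oxidative phosphorylation, many of which work beside proteins that this ribosome makes, numbered 74 in the tissue comparison. In induced organs, with TMM, edgeR called 50 of them higher in the gut and 1 lower, with a median log2 fold change of 0.74. Of the 72 members 5 were higher and 1 lower, and of all genes 21% were higher and 22.7% lower. Other scalings were not tried for these lists, and total counts only turned the balance of called members in this contrast. In control organs 14 were higher and 2 lower (19.9% and 18.3% of all genes), with a median of 0.34. Without libraries 112 and 106 there were 24 higher and 6 lower (30.7% and 28.5% of all genes), with a median of 0.08. On induction their medians were 0.23 for the gut and -0.26 for the fat body, with 0 called by edgeR in either. In control guts the median subunit gene stood at 155 CPM per kb, against 27.3 for the median member, and in control fat bodies at 129, against 28.7.

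Cytoplasmic ribosomal protein genes (81) had medians of 0.37 for the gut and -0.32 for the fat body on induction, with 0 called in either tissue. Between organs their medians were 0.31 in induced flies and -0.41 in control flies, with 0 higher and 3 lower called in control flies (12 higher and 29 lower without libraries 112 and 106). Of all genes 19.9% were called higher and 18.3% lower in control flies, and 30.7% and 28.5% without those libraries. Mitochondrial translation factors (12) had medians of 0.02 for the gut and -0.06 for the fat body on induction, mitochondrial tRNA synthetases (15) of -0.06 and 0.01, and genes for expression and upkeep of mitochondrial DNA (18) of -0.15 and -0.10, with 0 called. In control guts the median translation factor stood at 8.26 CPM per kb and the median synthetase at 4.91, below the 27.3 of the median member. Transcripts encoded in mitochondrial DNA (15) had a median of -0.23 in the gut on induction, which was 0.66 without library 112, and of 0.26 in the fat body, again with 0 called. Genes of mitochondrial import and proteostasis (18) had medians of 0.17 in the gut and 0.02 in fat bodies. Without library 112 edgeR called 4 respiratory chain subunit genes lower on induction in the gut, 1 cytoplasmic ribosomal protein gene higher and 5 lower, and 2 genes of mitochondrial DNA expression, 1 translation factor and 1 synthetase lower. It called 8.49% of all genes there, and these few calls are not read as a result about the lists. Poly(A) enrichment captures the transcripts encoded in mitochondrial DNA unevenly, so the levels of those 15 are not set against those of nuclear genes.

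**Figure D5:**
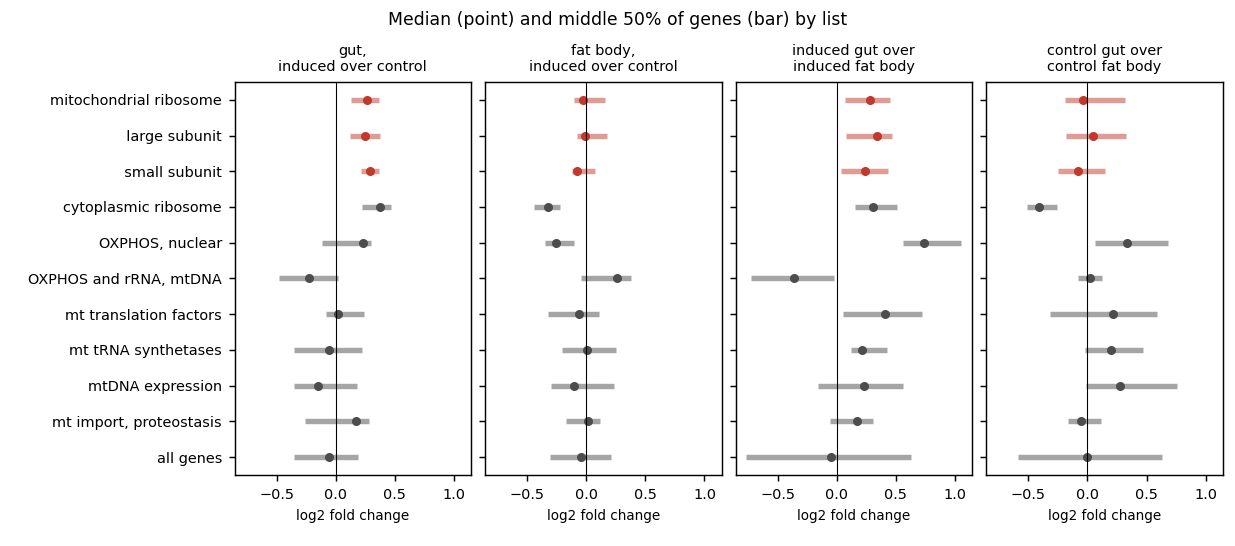
Median log2 fold change (point) and middle 50% of genes (bar) for the members, their subunits and other lists in 4 comparisons, with all genes in the bottom row. Members have medians of 0.27 for the gut and -0.03 for the fat body on induction, and of 0.28 and -0.04 for gut over fat body in induced and in control flies.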

How the data were processed

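Poly(A) RNA libraries of guts and fat bodies, 3 per group and 12 in all, were analysed from the deposited tables. The authors removed duplicate reads, aligned reads to genome release 6 with HISAT2 and summed them per gene with featureCounts, leaving raw counts (10358 gut genes, 11056 fat body genes). Before deposit they dropped genes with no count and those outside their overexpression experiment. The deposited variance-stabilised values are a log2-like score from DESeq2, per the labels and methods. Whether counting used strand is not given in the sources used here.

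Tests used edgeR 4.0.16 under R 4.3.3, in its quasi-likelihood form. Libraries were scaled by TMM, every gene with 1 or more counts entered, and Benjamini-Hochberg adjustment ran over all of them (10% FDR). Each tissue was fitted alone for induction, and 1 fit of 12 libraries and 10005 genes gave contrasts between tissues and the difference of effects. DESeq2 1.42.0 and limma 3.58.1 (on the variance-stabilised scores) were alternatives, with other scalings, filters and left-out libraries. Intervals and standard errors are those of the fits. Counts of replicate libraries varied by 33.9% (gut) and 39.8% (fat body) beyond counting error, as edgeR estimates it. Steps were tested on simulated data. CPM use the scaling of the 12-library fit. Lengths and positions are from Ensembl release 115 (BDGP6.54), and symbols matched 10279 gut and 10969 fat body genes.

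Members and lists were chosen with earlier results of these data known. Members named with values are the 5 highest and 5 lowest by log2 fold change on induction in each tissue and between control organs (mean of at least 5 CPM), the 4 smallest p-values for the difference of effects, the 4 highest and lowest per length in control organs, and the S18 paralogs. *mRpL37* and the members called between induced organs, under either scaling given, were named after their values were seen.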

Additional observations from a re-analysis of the deposited data

How the results depend on the processing

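No paired analysis was possible because the labels give no replicate numbers shared between groups. On induction, 0 members were called under each scaling, filter and tool tried in either tissue, except that leaving out 1 library at a time gave 0 to 1 calls in the gut (1 without library 112). The gut median ranged from 0.15 to 0.49 with 1 library left out, and was 0.038 with the length trend as offset. The fat body median was 0.12 with total counts only, where that of all genes was also 0.12. Between control organs the 5 calls became 8 with total counts only (0 higher, 8 lower in the gut), 0 in the fit of 6 libraries, 11 with total counts without the top genes (0 higher, 11 lower, 1 of the 5 among them), 11 with the length offset (11 higher, 0 lower, 4 of the 5 among them), 36 without libraries 112 and 106 (9 higher, 27 lower), 0 at 5% FDR and 3 without members that share exonic positions, and 0 to 13 with 1 library left out (13 without library 106, 8 without 112). Upper quartile scaling called 4, all lower, of which 1 was among the 5. The median there was -0.24 with upper quartile, -0.31 with total counts only, -0.35 with total counts without the top genes and -0.36 without libraries 112 and 106. Between induced organs the 6 calls became 20 in the fit of 6 libraries (19 higher, 1 lower), 13 with the length offset (11 higher, 2 lower), 21 without libraries 112 and 106 (19 higher, 2 lower) and 1 without members that share exonic positions, and 3 to 10 with 1 library left out. Both total count scalings gave 8 calls (1 higher, 7 lower), of which 2 were among the 6. The median there was 0.060 with upper quartile, -0.20 with total counts only and -0.19 with total counts without the top genes. The cause of these shifts was not tested. In the main fit 19.9% of all genes were called higher and 18.3% lower between control organs, and 21% and 22.7% between induced organs. Without libraries 112 and 106 the shares between control organs were 30.7% and 28.5%. Shares of all genes under most other alternatives are not given here, so the counts of called members are not read as a result about the members. The length offset and the joint removal of libraries 112 and 106 were chosen after the data were seen. Those 2 libraries were singled out by the members' own levels, so results without either of them are descriptions only. Of 1028 alternative values of 58 results for single members, 901 stayed on the same side of the threshold, 84 lost and 43 gained a call. Only the 5 members called between control organs and the 6 called between induced organs had a call to lose. All 84 losses were theirs, so 1028 is not the number that the losses are a share of. The sign changed in 23 of the 901, all without a call in either fit. The planned search of promoters for motifs was not run. Every member had at least 33 counts per library, so that spread between the 3 libraries of a group limited the precision more than counting did.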
